A study of Mus musculus with 12 samples.

Results

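Slc17a6, Syt4 and Pclo, 3 genes whose proteins act on the sending side of the synapse, were followed in mouse hippocampus across loss of the transcription factors CREB and CREM and an injection of kainate. Every probe set that the platform annotation assigns to one of these symbols was taken, which gave 5 of the 11868 probe sets on the array other than control probe sets, for 3 of the 5928 genes named by a probe set with 1 symbol. These are 138417_f_at and 136664_at for Slc17a6, 168114_i_at for Syt4, and 136680_at and 130641_at for Pclo. The genes were picked with earlier results of these data known, and the comparison that drew attention to them is not recorded. Their differences between the groups are therefore given as a description, without p-values.

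The study hybridised 12 Affymetrix arrays, 3 for each of 4 groups: control mice given saline, control mice given kainate, mutant mice given saline and mutant mice given kainate. Kainate, a glutamate receptor agonist that provokes seizures, was injected into the abdominal cavity at 20 mg/kg, and hippocampi were taken 1 hour after injection. The animals were littermates of both sexes, 5 to 6 weeks old. Each array holds RNA pooled from 3 animals, so the spread between arrays is a spread between pools. The title names the mutants as lacking CREB and CREM, and the sources used here give neither alleles nor strain nor the driver of any deletion for either genotype. In whole hippocampus, fewer cells that express a gene and less RNA per cell cannot be told apart.

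At a chemical synapse, transporters fill vesicles with transmitter, a protein scaffold at the active zone holds vesicles near calcium channels, and calcium-binding proteins of the synaptotagmin family couple calcium entry to membrane fusion. Slc17a6 encodes VGLUT2, a vesicular glutamate transporter prominent in thalamus and brainstem, whereas the paralog Slc17a7 (VGLUT1) prevails in hippocampal pyramidal and granule cells. Syt4 encodes an unusual synaptotagmin found on dense-core and other vesicles, and it is known as a gene that neuronal activity induces. Pclo encodes piccolo, a very large scaffold protein of the active zone and a relative of bassoon.

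CREB and CREM bind the cAMP response element, so the stretches before the annotated starts of Slc17a6 and Pclo were searched for it. The letters searched were TGACGTCA, the full element, and its half-sites TGACG or CGTCA, which cover both strands and lie within the full element. RefSeq's promoter table (GRCm38.p6) matched Slc17a6 with 2 starts and Pclo with 1. It held no entry for Syt4, so Syt4 was not searched. The 250 bases before each start held no full element, which 1.55% of all 32851 such windows hold. Of the 3 windows, the one before the second Slc17a6 start (chr7:51624387-51624636, plus strand) held a half-site, 102 bases before the start, and 17.8% of all windows hold at least 1. That window is shown for its half-site, and the one before the Pclo start (chr5:14514668-14514917, plus strand) as the only window of Pclo. The window before the first Slc17a6 start, which held no half-site, is not shown. The capitals mark the half-site.
Slc17a6 second start: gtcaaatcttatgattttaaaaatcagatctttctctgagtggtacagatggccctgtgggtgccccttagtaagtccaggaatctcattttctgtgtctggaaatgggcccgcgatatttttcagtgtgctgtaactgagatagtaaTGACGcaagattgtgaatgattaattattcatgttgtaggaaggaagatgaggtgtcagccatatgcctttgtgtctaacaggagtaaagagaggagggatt
Pclo: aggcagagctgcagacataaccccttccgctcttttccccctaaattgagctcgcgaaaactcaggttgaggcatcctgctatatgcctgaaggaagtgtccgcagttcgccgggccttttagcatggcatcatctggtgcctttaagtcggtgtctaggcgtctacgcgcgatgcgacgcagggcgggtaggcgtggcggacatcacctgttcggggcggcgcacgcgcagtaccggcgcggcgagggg
A match of letters is a description and not a binding site, and its absence from these windows says nothing about the factor elsewhere.

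Values are GCRMA levels on the log2 scale as the authors deposited them, and a difference of 1 is a doubling. Of the 11868 probe sets, 3541 reached log2 4 on at least 3 arrays and were tested. Of the 5 probe sets followed here 4 passed that filter. The fifth, 130641_at for Pclo, read 1.67 to 1.76 over all 12 arrays, reached log2 4 on 0 of them, and was not tested. Of the tested ones, 138417_f_at, 168114_i_at and 136680_at lay above log2 4 on 12 of 12 arrays, and 136664_at on 8 of 12. The suffix f marks a probe set that can match several sequences of a family, so other transcripts may add to the signal of 138417_f_at. The suffix i marks one with fewer unique probes than the design asked for. Whether other transcripts add to the signal of 168114_i_at cannot be told from that suffix.

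A pair of arrays stood apart, one by its overall spread and both by genes that differ between the genotypes. On mutant kainate replicate 3 the SD over all probe sets was 1.52, against 1.71 to 1.78 on the other 11 arrays. Tested probe sets at log2 7 to 9 read lower on it than on the other mutant kainate arrays, with a median difference of -1.17, and those at log2 9 to 11 with one of -0.91. The array labelled control kainate replicate 3 read 12.95 for Gfap, an astrocyte filament gene, where the other 5 control arrays read 10.75 to 11.59 and the mutant saline arrays 12.22 to 13.00. Mutant kainate replicate 3 read 11.55 for Gfap, within the range of those control arrays. Fbll1, a fibrillarin relative, read 6.51 on control kainate replicate 3, where the other control arrays read 7.78 to 8.11 and the mutant saline arrays 6.35 to 6.76, and it read 7.46 on mutant kainate replicate 3. Gfap and Fbll1 were picked after their values were seen, because they separate the other control and mutant arrays, and by array-wide measures control kainate replicate 3 was ordinary, with an SD of 1.76. For Gfap both arrays read against their labels. For Fbll1 control kainate replicate 3 did so too, while mutant kainate replicate 3 lay between the ranges of the genotypes. For Sik1, a kinase gene also named after its values were seen, all mutant arrays lay below all control arrays of the same treatment as labelled. Pooled over both treatments the genotypes overlapped. Its log2 difference was -0.64 ± 0.27 (SE) after saline and -0.93 ± 0.27 after kainate. A mix-up of labels was not tested, and each genotype difference after kainate holds only for the arrays as labelled. Arrays of replicate 1 correlated with each other across groups (0.987 to 0.992) more closely than with replicates 2 and 3 of the same group (0.818 to 0.968), so replicate 1 against replicates 2 and 3 is treated as a batch seen in the data. The genotype differences averaged over treatments and the kainate differences are given below with all arrays, within these batches and without both replicate 3 kainate arrays.

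The treatment itself left a mark on the arrays. Of 37 activity-induced genes on a list, without Syt4, 10 were on the array and 7 were tested, of which 4 rose with kainate averaged over genotypes and 0 fell (limma, adjusted p under 0.05). They were Kcnj2, an inward rectifier channel (2.71 ± 0.17), Apold1 (2.17 ± 0.26), Sik1, a salt-inducible kinase (1.75 ± 0.19), and Egr3, a zinc finger factor (1.64 ± 0.19), all as log2 difference ± SE. Over all tested probe sets 0.141% passed in that comparison. The list was written with results of these data known, so its number of calls is a description and not an independent check. None of the 4 probe sets followed here did.

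The main Slc17a6 probe set, 138417_f_at, read lower in the mutant groups. It read 8.11, 8.31 and 8.21 in control mice after saline and 8.58, 8.20 and 7.93 in control mice after kainate, for replicates 1, 2 and 3 in that order. In mutant mice it read 8.02, 7.37 and 7.77 after saline and 8.22, 7.60 and 7.16 after kainate. After saline all 3 mutant arrays lay below all 3 control arrays, whereas after kainate replicate 1 of the mutants overlapped the controls. Control mice averaged 8.21 ± 0.10 (SD, n = 3 arrays) after saline and 8.24 ± 0.33 after kainate, and mutant mice 7.72 ± 0.33 and 7.66 ± 0.53. In order of level, both control means were close together, as were both mutant means, and each of these neighbouring pairs differed by far less than the spread within its groups.

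For Slc17a6 the mutant minus control difference was -0.49 ± 0.27 (log2, SE) after saline and -0.58 ± 0.27 after kainate, and -0.53 ± 0.19 averaged over treatments, a level 1.45-fold lower. Leaving out mutant saline replicate 2 took the saline value to -0.31, and leaving out mutant kainate replicate 3 took the kainate value to -0.33. Replicate 1 alone gave an averaged difference of -0.23 and replicates 2 and 3 gave -0.69. It was -0.49 ± 0.17 without both replicate 3 kainate arrays. The kainate minus saline difference was 0.03 ± 0.27 in control mice and -0.06 ± 0.27 in mutant mice, both small beside the spread. The batches differed in sign, as replicate 1 alone gave 0.47 in controls and 0.20 in mutants, and replicates 2 and 3 gave -0.19 and -0.20. With both replicate 3 kainate arrays left out the control value was 0.19 ± 0.24, and the sign in mutants turned to 0.19 ± 0.24 and to 0.26 ± 0.18 when the arrays were quantile normalized again.

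The other Slc17a6 probe set, 136664_at, lay around the dim level of log2 4 and showed no such separation. Its values ran from 4.08 to 4.29 in control mice after saline and from 3.65 to 4.83 after kainate, and in mutant mice from 4.04 to 4.11 and from 3.96 to 4.22. The groups overlapped, with 2 of 3 mutant saline arrays below every control saline array. The averaged mutant minus control difference was -0.10 ± 0.17, and kainate minus saline was -0.02 ± 0.24 in either genotype. The averaged genotype difference was -0.21 ± 0.16 without both replicate 3 kainate arrays, -0.35 in replicate 1 alone and 0.02 in replicates 2 and 3. For kainate minus saline replicate 1 alone gave 0.68 in controls and 0.16 in mutants, and replicates 2 and 3 gave -0.37 and -0.12. These became 0.23 ± 0.22 in controls and 0.02 ± 0.22 in mutants with both replicate 3 kainate arrays left out. Its correlation with 138417_f_at was 0.547 over 12 arrays, given as a description.

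Syt4 read lower in mutants and somewhat higher after kainate. It read 10.29, 9.70 and 9.89 in control mice after saline and 10.42, 10.48 and 10.07 in control mice after kainate, for replicates 1, 2 and 3. In mutant mice the values were 9.99, 9.22 and 9.34 after saline and 10.24, 9.74 and 9.25 after kainate. Replicate 1 was the highest array in 3 of the 4 groups, and every pair of groups compared overlapped. Control mice averaged 9.96 ± 0.30 (SD, n = 3 arrays) after saline and 10.32 ± 0.22 after kainate, and mutant mice 9.52 ± 0.42 and 9.74 ± 0.49. In order of level the groups ran control kainate, control saline, mutant kainate and mutant saline. The step from control kainate to control saline was somewhat larger than the SD of either group. Each lower step was within the SD of the groups it joined.

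The mutant minus control difference of Syt4 was -0.44 ± 0.29 after saline, -0.58 ± 0.29 after kainate and -0.51 ± 0.20 averaged over treatments, a level 1.42-fold lower. Leaving out control saline replicate 1 took the saline value to -0.28, and leaving out mutant kainate replicate 3 took the kainate value to -0.33. Replicate 1 alone gave -0.24 and replicates 2 and 3 gave -0.65, and the difference was -0.45 ± 0.19 without both replicate 3 kainate arrays. Kainate minus saline was 0.37 ± 0.29 in control mice and 0.23 ± 0.29 in mutant mice, 0.30 ± 0.20 averaged over genotypes. Replicate 1 alone gave 0.13 in controls and 0.25 in mutants, and replicates 2 and 3 gave 0.48 and 0.22. Of the 6 same-numbered kainate and saline arrays, the kainate array read higher in 5, and 11.2% of tested probe sets were higher in at least 5 of 6. The exception was mutant replicate 3, at -0.08. Without both replicate 3 kainate arrays the averaged kainate difference of Syt4 was 0.48 ± 0.19, and with the batch as a block as well 0.41 ± 0.12. Leaving out mutant kainate replicate 1 instead took the averaged value to 0.17 and turned the value in mutants to -0.02. With all 12 arrays, the 7 tested activity-induced genes ran from 0.04 for Jun, through 0.81 for Rgs4, to 2.71 for Kcnj2, each a log2 difference on its own probe set. The Jun probe set averaged 4.15, near the dim level of log2 4, so its value says little about Jun.

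Pclo, by 136680_at, read lower in mutants after saline, and its reading after kainate hung on single arrays. It read 8.68, 8.75 and 8.47 in control mice after saline and 8.38, 8.66 and 8.40 in control mice after kainate, for replicates 1, 2 and 3. In mutant mice it read 8.26, 7.77 and 8.33 after saline and 8.85, 8.01 and 6.57 after kainate. All 3 mutant saline arrays lay below all 3 control saline arrays, while the mutant kainate arrays held both the highest and the lowest reading of the 12. Control mice averaged 8.63 ± 0.15 (SD, n = 3 arrays) after saline and 8.48 ± 0.16 after kainate, and mutant mice 8.12 ± 0.31 and 7.81 ± 1.15. The control means differed by about their SD, and the mutant kainate mean could not be placed apart from any other group given its spread.

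For Pclo the mutant minus control difference was -0.51 ± 0.46 after saline, -0.67 ± 0.46 after kainate and -0.59 ± 0.33 averaged over treatments. The averaged difference did not hold within both batches, as replicate 1 alone gave 0.02 and replicates 2 and 3 gave -0.90. After kainate the same batches gave 0.47 and -1.24. Without both replicate 3 kainate arrays the difference after kainate was -0.09 ± 0.29 and the averaged difference -0.30 ± 0.19. Kainate minus saline was -0.15 ± 0.46 in control mice, with -0.30 in replicate 1 alone and -0.08 in replicates 2 and 3, and -0.11 ± 0.27 without both replicate 3 kainate arrays. In mutant mice it was -0.31 ± 0.46 with all arrays, 0.60 in replicate 1 alone and -0.76 in replicates 2 and 3, and turned to 0.31 ± 0.27 without both replicate 3 kainate arrays.

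**Figure D1:**
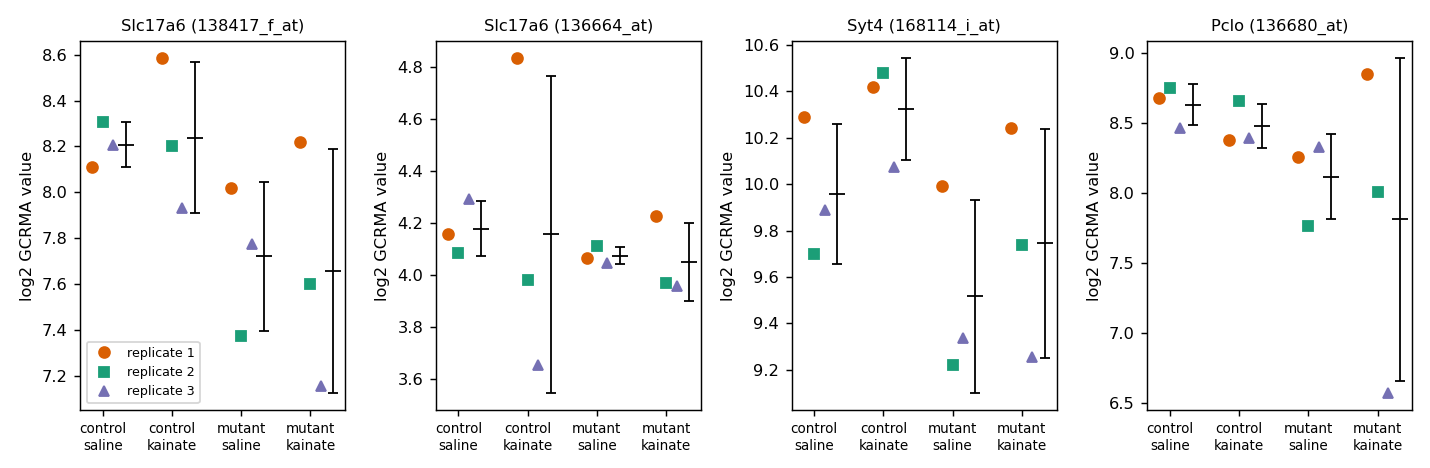
Log2 GCRMA value (vertical axis) of each tested probe set on each of the 12 arrays, by group on the horizontal axis; symbols give the replicate number and the black bar the mean ± SD of 3 arrays. Slc17a6 by 138417_f_at reads 7.37 to 8.02 in mutant saline, below the 8.11 to 8.31 of control saline, and Pclo spreads from 6.57 to 8.85 in mutant kainate.

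Read together after saline, 2 of the 4 tested probe sets (138417_f_at of Slc17a6 and 136680_at of Pclo) had all mutant arrays below all control arrays, and 5.11% of tested probe sets did so. In the same comparison 29% of tested probe sets had all mutant saline arrays above, so separation of these 6 arrays was common on the array as a whole. After kainate 0 of the 4 separated in either direction, where 3.78% of tested probe sets lay lower and 2.43% higher in mutants. Averaged over treatments, with 6 arrays against 6, 0 of the 4 separated, against 0.339% in each direction. The limma fit, with adjustment over all 3541 probe sets, called 0 of the 4, and it called 0% of all probe sets after saline, after kainate or averaged over treatments. At an unadjusted p under 0.05 the counts over all probe sets were 428, 167 and 677.

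**Figure D2:**
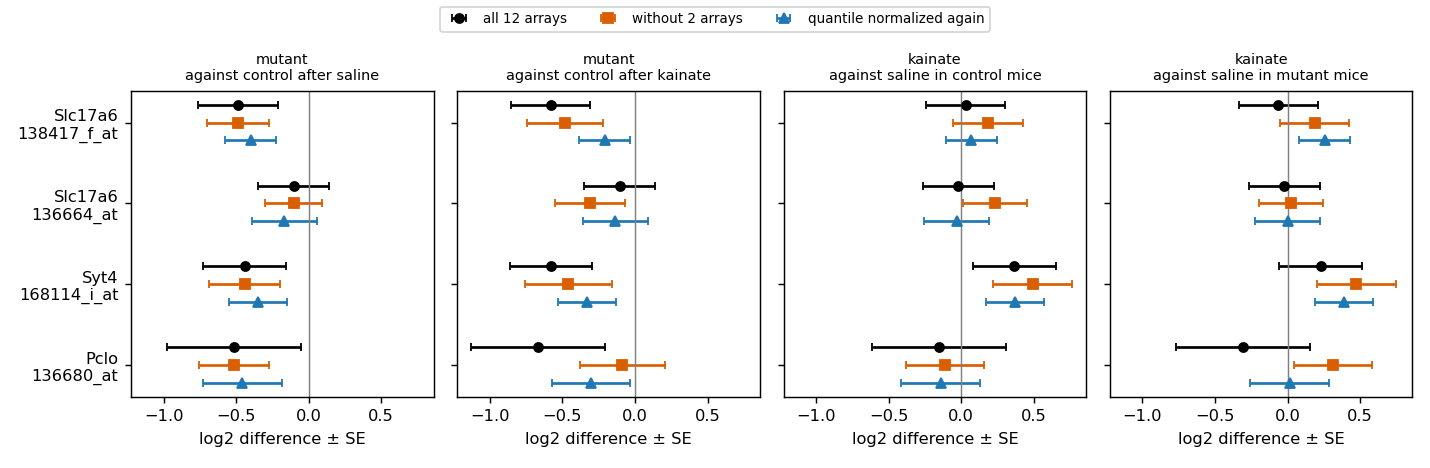
Log2 difference ± SE (horizontal axis) of the 4 tested probe sets in 4 comparisons, with all 12 arrays, without both replicate 3 kainate arrays, and after a further quantile normalization. The mutant differences after saline lie below 0 with all 12 arrays and after the further normalization. Leaving out 2 kainate arrays cannot change them. The kainate difference of Pclo in mutants goes from -0.31 to 0.31 without the 2 arrays.

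Arrays with the same replicate number were also compared between genotypes, as a description, since pairing by number was not shown. For Slc17a6 (138417_f_at) the mutant array was lower in 6 of 6 same-numbered pairs, by -0.09, -0.93 and -0.43 after saline and -0.37, -0.60 and -0.77 after kainate. For Syt4 it was also lower in 6 of 6, by -0.29, -0.48 and -0.55 after saline and -0.18, -0.74 and -0.82 after kainate. In both genes the difference of replicate 1 was the smallest under either treatment. For Pclo 5 of 6 pairs were lower, at -0.42, -0.98 and -0.14 after saline and 0.47, -0.65 and -1.83 after kainate, and for 136664_at 4 of 6. Over all tested probe sets 8.27% were lower in 6 of 6 pairs and 19.3% in at least 5.

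**Figure D3:**
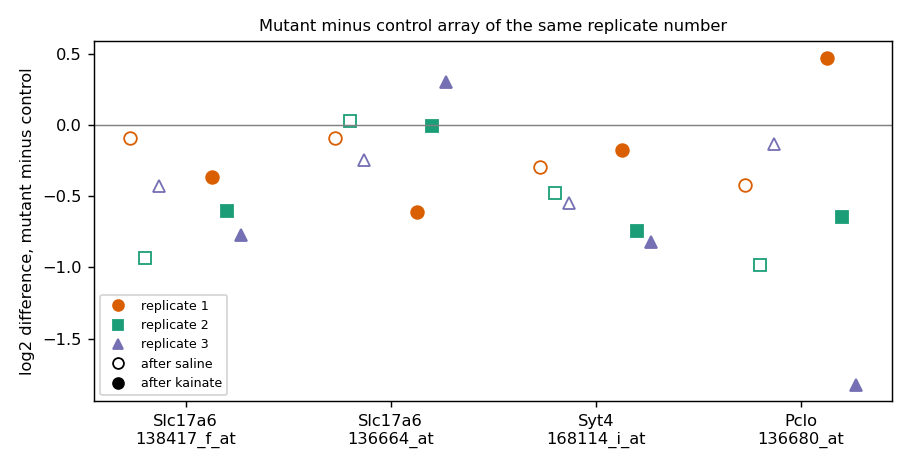
Log2 difference of the mutant array minus the control array of the same replicate number (vertical axis) for each tested probe set (horizontal axis), open after saline and filled after kainate. All 6 points of 138417_f_at and of Syt4 lie below 0, and the replicate 1 kainate point of Pclo lies above at 0.47.

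The 2 arrays that stood apart touch each of these values. On mutant kainate replicate 3, Slc17a6 (138417_f_at) differed by -0.75 and Syt4 by -0.74 from the average of replicates 1 and 2, less than the median deviation of -1.17 of tested probe sets at log2 7 to 9 and of -0.91 at log2 9 to 11. Pclo read -1.86 there, beyond that median. On control kainate replicate 3, Slc17a6 differed by -0.46, Syt4 by -0.38 and Pclo by -0.12 from the other control kainate arrays, where the median deviation at log2 7 to 9 was -0.06. The part of these array-wide deviations in the group differences was not tested beyond leaving the arrays out. For RNA integrity, the signal gap between the 3' and 5' probe sets of actin ran from 1.61 to 2.44 and was highest on mutant kainate replicate 3. The 4 kainate arrays of replicates 2 and 3 read 2.20 to 2.44, above all other 8 arrays, so within that batch this sign moved with kainate, and its part was not tested either.

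**Figure D4:**
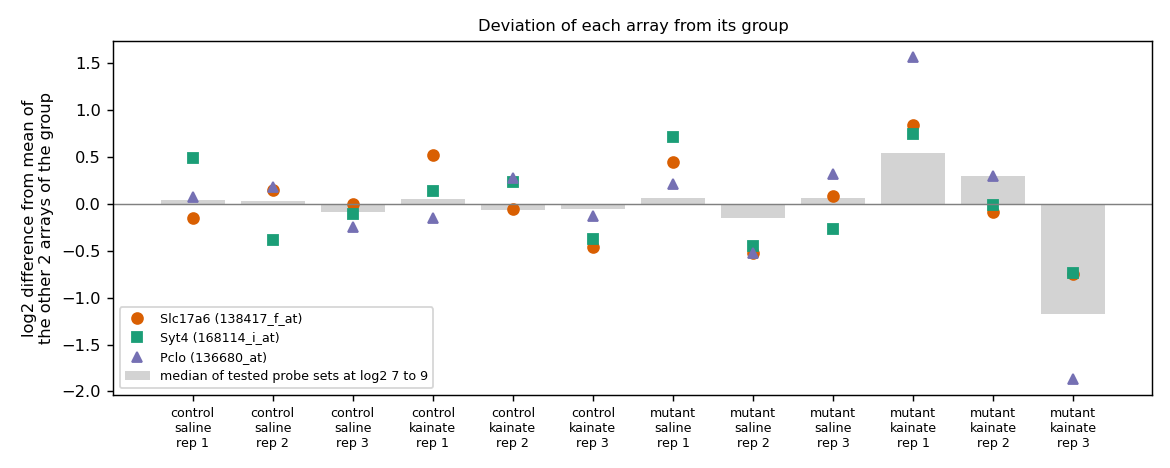
Difference of each array from the mean of the other 2 arrays of its group (vertical axis, log2) for Slc17a6, Syt4 and Pclo (points) and the median of all tested probe sets at log2 7 to 9 (grey bars); the horizontal axis gives the 12 arrays. The bar of mutant kainate replicate 3 reaches -1.17, with Pclo below it at -1.86 and the other points above it.

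Kainate and saline arrays overlapped for all 4 tested probe sets in both genotypes. In control mice 6.02% of tested probe sets lay higher on every kainate array and 4.63% lower, in mutant mice 1.67% and 8.44%, and with 6 arrays against 6 the shares were 0.395% and 0.452%. limma called 0.0282% of tested probe sets in control mice and 0.0282% in mutant mice, and 0 of the 4 in either.

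No dependence of the kainate difference on genotype was detectable for the 3 genes at this number of arrays. The interaction, the kainate difference in mutants minus that in controls, was -0.09 ± 0.39 for 138417_f_at, -0.14 ± 0.40 for Syt4 and -0.15 ± 0.65 for Pclo. The limma fit called 0% of the 3541 probe sets for this term, with 31 at an unadjusted p under 0.05. With both replicate 3 kainate arrays left out it was 0.00 ± 0.34, -0.02 ± 0.39 and 0.43 ± 0.38 in the same order. The errors leave room for differences of either sign.

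Other genes of the presynaptic terminal were read from 6 lists, with the brightest tested probe set of each gene and without Slc17a6, Syt4 and Pclo. Of 161 genes 57 were on the array and 31 were tested. Averaged over treatments, 0 passed higher and 0 lower for genotype, 10 were above and 21 below 0, and their median difference was -0.15 beside -0.01 over all tested probe sets. With both replicate 3 kainate arrays left out, 16 of the 31 were below 0, and the median was -0.03 beside 0.03. Slc17a6, Syt4 and Pclo stood at -0.49, -0.45 and -0.30 in that setting. After saline the median of the 31 genes was -0.05 beside 0.04, with 5 genes separated lower and 5 higher, beside 5.11% and 29% of all tested probe sets.

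Among vesicular transporters and related vesicle proteins, 4 genes were tested, 2 above and 2 below 0. Sv2b, a vesicle glycoprotein, had a mutant minus control difference of -0.15 ± 0.06, Slc17a5, the sialic acid transporter sialin, 0.13 ± 0.05, and Slc17a7 (VGLUT1) -0.10 ± 0.20. For Slc17a7 replicate 1 alone gave 0.37 and replicates 2 and 3 gave -0.34, whereas Slc17a6 was negative in both. Among synaptotagmins and other calcium sensors 1 of 5 was above and 4 below 0. Cadps2, a priming factor of dense-core vesicles, had -0.55 ± 0.25 (-0.34 without both replicate 3 kainate arrays), Syt11 -0.26 ± 0.15 and Syt6 0.25 ± 0.08. For kainate minus saline averaged over genotypes all 5 had differences below 0, with a median of -0.14, where Syt4 had 0.30. With both replicate 3 kainate arrays left out 2 of the 5 were below 0 and the median was 0.01.

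From the list of active zone scaffold and related genes, 6 besides Pclo were tested, 2 above and 4 below 0 for genotype. Ppfia2, a liprin of the active zone, had -0.32 ± 0.15, Cask, a scaffold kinase, -0.28 ± 0.19 and Rab3ip -0.24 ± 0.22. These were -0.23, -0.05 and -0.06 without both replicate 3 kainate arrays. Bsn (bassoon), the relative of piccolo and named after its value was seen, had 0.01 ± 0.12 against -0.59 ± 0.33 for Pclo, and this gap was not tested.

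The remaining presynaptic lists gave no call either. Of the fusion machinery 3 genes were tested and all were below 0. Stxbp5 and Stxbp5l, which encode the fusion inhibitors called tomosyns, had -0.66 ± 0.44 and -0.39 ± 0.27, and Napa, a SNARE disassembly adaptor, had -0.11 ± 0.28. Of 9 other vesicle proteins 2 were above and 7 below 0, with the proton pump subunit Atp6v0a1 at -0.75 ± 0.93, the pump accessory gene Atp6ap2 at -0.44 ± 0.23 and the small GTPase Rab3c at -0.38 ± 0.48. With both replicate 3 kainate arrays left out, Stxbp5 was at -0.27, Stxbp5l at -0.16, Atp6v0a1 at -0.49 and Atp6ap2 at -0.27, while Napa turned to 0.21 and Rab3c to 0.10. Of 4 endocytosis genes 3 were above 0, with dynamin Dnm1 at -0.31 ± 0.92, Ston1 at 0.18 ± 0.05 and the scaffold Itsn2 at 0.10 ± 0.06.

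**Figure D5:**
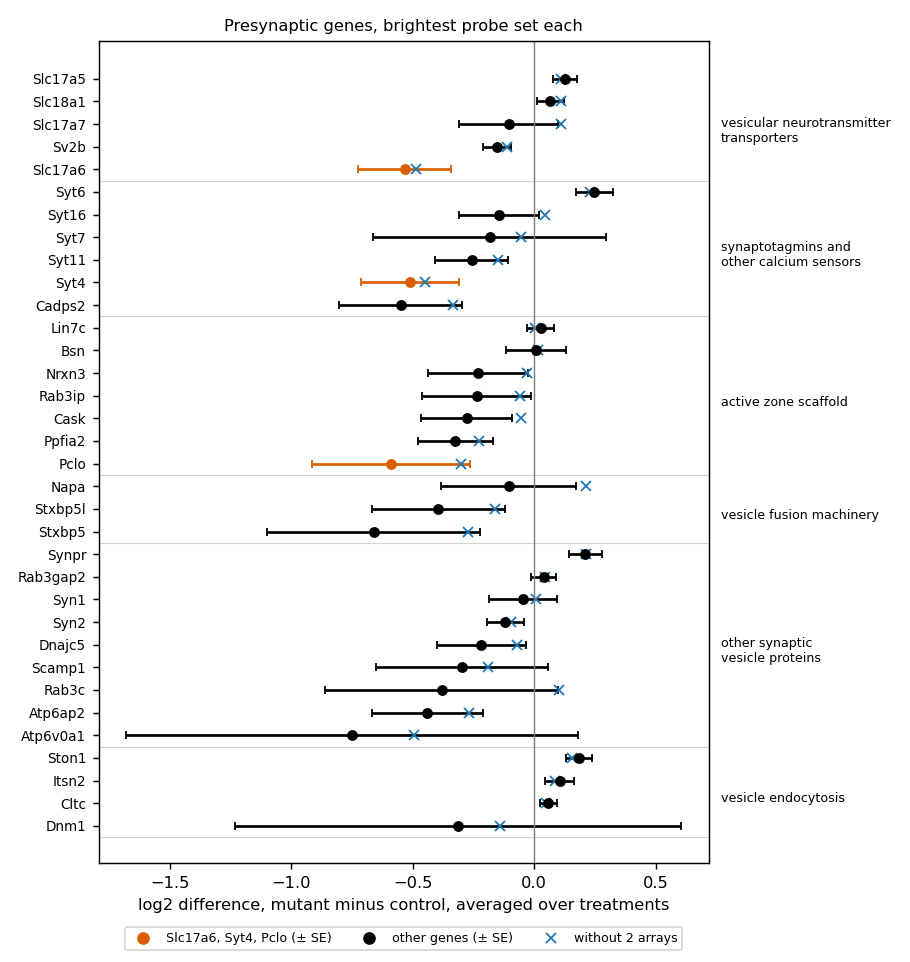
Mutant minus control log2 difference averaged over treatments (horizontal axis, ± SE) for each tested presynaptic gene, grouped by list; crosses give the value without both replicate 3 kainate arrays. Slc17a6, Syt4 and Pclo are at -0.53, -0.51 and -0.59, and their crosses at -0.49, -0.45 and -0.30.

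The 3 genes were also compared by their pattern over the arrays. Slc17a6 (138417_f_at) correlated with Syt4 at 0.802 and with Pclo at 0.832, and Syt4 with Pclo at 0.668, over the 12 arrays. Without both replicate 3 kainate arrays these were 0.763, 0.768 and 0.63. The arrays share batch and array-wide deviations, so these values are a description. The genes most like Slc17a6 over the 12 arrays were Tmem185b (0.948), Ric8b (0.943), Ddx52 (0.934), Fam120aos (0.934) and Cul2 (0.933), by Pearson correlation. Those most like Syt4 were Tusc1 (0.967), Asphd1 (0.956), Tmem130 (0.95), Tox2 (0.919) and Plch2 (0.918). Those most like Pclo were Mydgf (0.981), Exoc6 (0.978), Nr2f2 (0.975), Atp6ap2 (0.965) and Obi1 (0.964), and without both replicate 3 kainate arrays they correlated with it at 0.865 to 0.922. For the dim probe set 136664_at they were Rnf4 (0.891), Sctr (0.837), Tshz2 (0.807), Tspan2 (0.806) and Gorasp2 (0.806). By Spearman rank correlation Rnf4 stayed at 0.881, while Sctr, Tshz2, Tspan2 and Gorasp2 had only 0.266 to 0.448. Their likeness to 136664_at thus did not hold by rank.

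Because Slc17a6 is strong in the thalamus beside the hippocampus, markers of that region were read on the same arrays. Of 22 thalamus and habenula markers 7 were on the array and 4 were tested. The mean level of those 4 per array ran from 5.91 to 5.99 in control mice after saline and from 6.06 to 6.10 after kainate, and in mutant mice from 5.95 to 6.17 and from 5.61 to 6.11. Their median mutant minus control difference was 0.08 after saline, where Slc17a6 read -0.49, and -0.33 after kainate, or 0.09 without both replicate 3 kainate arrays. Averaged over treatments the marker median was -0.12, with 3 of the 4 below 0, where Slc17a6 read -0.53. Without both replicate 3 kainate arrays that median was 0.10, where Slc17a6 read -0.49. Of the rest on the array, Prkcd read 1.45 to 1.56, Lhx2 2.09 to 2.25 and Foxp2 3.73 to 3.94, all below the dim level. Of the tested 4, Rorb (5.83 to 7.86) and Nwd2 (5.83 to 6.49) had the highest means, and Rorb is also expressed in cortex. For the hippocampus, the dentate gyrus marker C1ql3 read 7.14 to 8.41, while the pyramidal cell markers Cpne4 (4.31 to 4.69) and Cdh24 (2.93 to 4.85) lay near the dim level, so this array holds few markers to check the tissue. Of 16 astrocyte markers 4 were tested, and the log2 of their summed level ran from 10.87 to 11.62 in control mice after saline and 11.53 to 13.00 after kainate, and in mutant mice from 12.27 to 13.01 and 11.62 to 13.06. That sum is nearly all Gfap, the other 3 averaging 4.09 to 5.97. After saline the mutant minus control difference was 1.41 ± 0.49 for Gfap, and -0.07 ± 1.34 for Slc1a2, 0.01 ± 0.19 for Apoe and -0.09 ± 0.09 for Pla2g7, with a list median of -0.03. Averaged over treatments 3 of the 4 were below 0. Gfap averaged 11.16 in control saline and 12.57 in mutant saline, and 11.99 and 12.47 after kainate. The parts of adjoining thalamic tissue and of astrocyte content in the differences of Slc17a6, Syt4 and Pclo were not tested.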

How the data were processed

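The authors deposited log2 values from GCRMA in R 2.4.1, per the submitters' processing notes, which adjust background by probe sequence, normalize across arrays and summarise each probe set. The GCRMA version is not given in the sources used here. Of 11934 rows, 66 control probe sets were left out, and 11868 were filtered to the 3541 that reached log2 4 on 3 or more of the 12 arrays. Symbols came from the platform annotation (7717 probe sets with 1 symbol, 150 with several, 4001 with none), and all 3 symbols were found in RefSeq's gene table. limma 3.58.1 in R 4.3.3 fitted the 4 group means over all 12 arrays (8 residual degrees of freedom, no block) with Benjamini-Hochberg adjustment over the 3541 in each of 7 comparisons, threshold 0.05, and was tested on simulated data. The number of arrays limits precision. Named genes are the probe sets followed, up to 3 of each presynaptic list with the largest difference, the 5 most correlated genes, and up to 3 markers a list by mean. The members and lists were chosen with earlier results of these data known.

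Replicate numbers are shared between groups. Deviations of same-numbered arrays correlated at 0.383 to 0.627 for kainate in controls and at -0.0779 to 0.479 for kainate in mutants. For genotype the values were 0.47 to 0.855 after saline and 0.19 to 0.578 after kainate. Arrays of different numbers were not compared in this way and replicate 1 forms a batch, so these values cannot show pairing by number. Alternatives were other filters, a further quantile normalization, the replicate number or the batch as a block, the arrays compared alone, and arrays left out.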

Additional observations from a re-analysis of the deposited data

How the results depend on the processing

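The direction of the mutant minus control difference averaged over treatments was kept by 138417_f_at of Slc17a6 (-0.67 to -0.30), Syt4 (-0.63 to -0.34) and Pclo (-0.85 to -0.28) under the 19 alternatives run, though Pclo was at 0.02 in replicate 1 alone, while 136664_at kept it in 17 of 18 (-0.23 to 0.07, turned without control kainate replicate 1). None of the 4 tested probe sets had an adjusted p under 0.05 in any comparison or alternative. With quantile normalization the mutant minus control difference of 138417_f_at after kainate was -0.21. Without both replicate 3 kainate arrays and no block, kainate minus saline of Pclo in mutants was 0.31. Leaving out 1 array at a time gave 138417_f_at -0.63 to -0.31 for genotype after saline and -0.86 to -0.33 after kainate, Syt4 -0.68 to -0.28 and -0.83 to -0.33, and Syt4 -0.02 to 0.47 for kainate in mutants. It gave Pclo -0.83 to 0.31 for kainate in mutants, -1.19 to -0.047 for genotype after kainate and -0.67 to 0.47 for the interaction, the upper Pclo value in each case without mutant kainate replicate 3. The cause was not tested.

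Counts of called probe sets moved more. For kainate in controls (1) they were 3 with the filter at log2 5, 3 with quantile normalization, 3 with the replicate block, 2 with the batch block, 7 without both replicate 3 kainate arrays and the batch block, 5 without them and no block, 6 with the arrays compared alone, and 1 to 4 without 1 array. For kainate in mutants (1) they were 0 with no filter, 4 with quantile normalization, 2 with the replicate block, 2 with the batch block, 5 and 3 without both arrays, 0 with the arrays compared alone and 0 to 67 without 1 array. Averaged over genotypes (5) they were 9 with quantile normalization, 20 and 9 without both arrays and 5 to 56 without 1 array. For genotype (0) they were, without both arrays and with the batch block, 6 after saline, 4 after kainate and 29 averaged, and with no block 1 after saline and 5 averaged. Without 1 array they were 0 to 15 after kainate and 0 to 2 averaged. The replicate block changed no call of the 4 probe sets.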
